A study of Mus musculus with 4 samples.

Results

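The excitation-contraction coupling triad genes described here are 10 genes whose products sit at or around the triad of skeletal muscle: Cacna1s, Cacnb1, Cacng1, Stac3, Ryr1, Jph1, Jph2, Trdn, Casq1 and Srl. They were chosen by gene symbol, with no measured value in the rule, and make up 10 of the 20340 gene labels that had a value in every sample. All 10 were found as a locus of their own, with no row shared with another gene, and all 10 passed the filter on low values. mRNA-seq had been done on tibialis anterior (TA) muscle of wild-type C57BL/6 mice aged 20 months (Old 1 and Old 2) or 3 months (Young 1 and Young 2), and the level of each gene was given as FPKM (fragments per kilobase of transcript, scaled by the authors to the number of mapped fragments). The 4 samples share strain and tissue and carry no transgene or treatment, and the labels give neither the sex nor the number of mice behind a sample. The series' design text speaks of triplicates, whereas 2 samples per age were analysed here. The question was how the mRNA of the coupling apparatus differs between young and old muscle.

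A muscle fibre turns an electrical signal into a release of calcium at the triad, where a transverse tubule, an inward fold of the surface membrane, lies between terminal cisternae of the sarcoplasmic reticulum. The dihydropyridine receptor in the tubule senses the voltage and opens the ryanodine receptor across the gap through physical contact, junctophilins hold the membranes together, and triadin and calsequestrin keep calcium stored next to the release channel. Loss of this coupling is known to weaken muscle, and it has been studied widely in aged muscle.

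In all 4 samples the triad genes were among the most abundant transcripts. The lowest of them stood at percentile 93.6 of the genes tested (Stac3 in Young 2) and the highest at percentile 99.8 (Casq1 in Old 2). Casq1 was the highest of the 10 in each sample, at a mean of 1826 FPKM, and its values overlapped those of no other triad gene. Jph1, Stac3 and Cacnb1 had the lowest means (123, 117 and 104 FPKM). The 6 others lay between at means of 211 FPKM (Cacna1s) to 333 FPKM (Ryr1), and their order changed with the sample. Ryr1 came second in Old 1 (618 FPKM), but in Old 2 (151 FPKM) it lay below Cacng1, Trdn, Srl and Jph2, and in Young 1 (120 FPKM) below Srl, Jph2 and Cacng1. Apart from Casq1, neighbours in the order of means overlapped in their values over the samples. FPKM is a level per transcript length, so these levels can be set beside each other.

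In summed FPKM, the samples of one age differed more than the ages did. The deposited FPKM values summed to 698130 in Old 1 and 739302 in Young 2, but to 226747 in Old 2 and 251294 in Young 1. Old 1 exceeded Old 2 in every one of the 9420 tested genes with a value above 0 in Old 2. Young 2 exceeded Young 1 in every one of the 9442 tested genes with a value above 0 in Young 1. Between 10 and 100 FPKM, the ratio of Old 1 to Old 2 had a median of 1.99 and a 1st percentile of 1.90, so the values lay close above a lower edge, and the ratio of Young 2 to Young 1 had a median of 1.97 and a 1st percentile of 1.61. Nothing in the labels says that samples of one age came from separate mice. A figure legend of the study speaks of 2 independent sequencing experiments behind each sample and does not name mice. The p-values here measure only the spread between these samples, which may be technical. Across all 10266 tested genes the deviations from the age mean correlated at 0.885 between Old 1 and Young 2, and with 2 samples per age the value for Old 1 and Young 1 is its mirror image, -0.885. Each gene is therefore described below also by 2 ratios of samples of like scale, Old 1 to Young 2 and Old 2 to Young 1. This pairing came from the values and not from the labels, so the 2 ratios are a description and not replicates of a design.

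**Figure D1:**
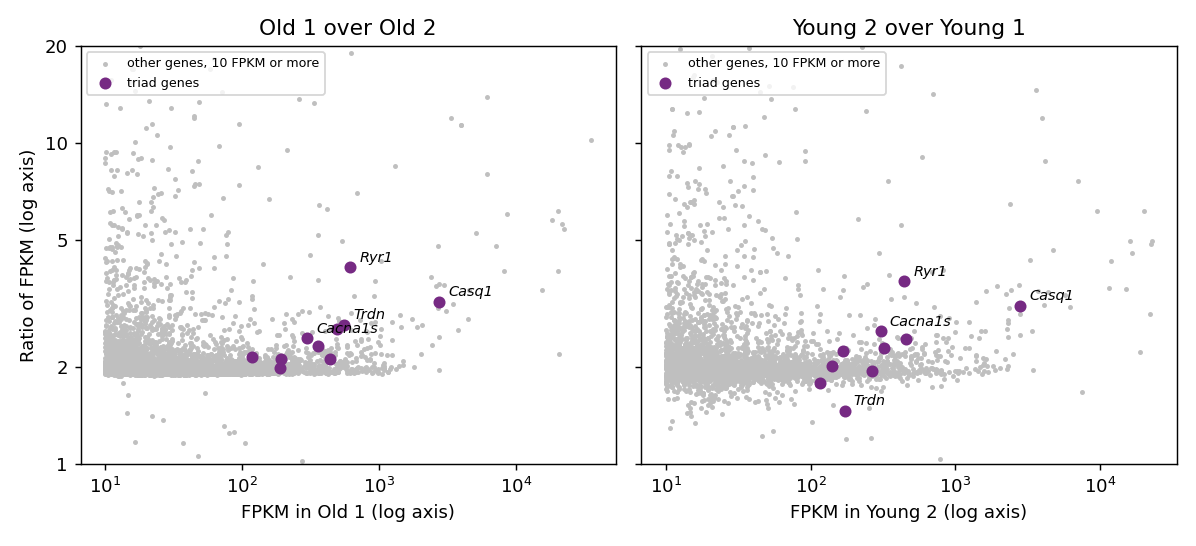
Ratio of FPKM between the 2 samples of one age (vertical, log axis, drawn from 1 to 20) against FPKM in the higher sample (horizontal, log axis), for Old (left) and Young (right). Grey points are genes with at least 10 FPKM, a few of which lie above the drawn range, and purple points are the 10 triad genes. Ryr1 lay above most genes in both panels, at 4.10 and 3.71, and Trdn lay below most genes in the right panel, at 1.47.

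The triad genes spanned this spread. Old 1 exceeded Old 2 by 1.999-fold (Stac3) to 4.10-fold (Ryr1), and Young 2 exceeded Young 1 by 1.47-fold (Trdn) to 3.71-fold (Ryr1). The young ratio of Trdn stood low, since only 4 of 617 genes between 100 and 1000 FPKM in Young 2 (0.648%) had a ratio as low as or lower than 1.47, Trdn included. The whole-muscle values cannot tell fewer cells of a type from less RNA per cell.

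No triad gene passed the test between the ages. In limma on log2(FPKM + 1) of the values as deposited, 0 of 10 had an adjusted p under 0.05 and 0 of 10 an unadjusted p under 0.05, beside 31 of all 10266 genes past the threshold (0.302%, with 18 or 0.175% higher and 13 or 0.127% lower in Old) and 77 at an unadjusted p under 0.05. The log2 fold changes of Old over Young ran from -0.46 (Cacnb1) to 1.24 (Trdn), with standard errors from 0.975 to 1.32 and an adjusted p of 1.00 for each. Their median was 0.27 (SD 0.47 over the 10 genes), beside a median of -0.01 (SD 0.54) over all genes tested and -0.02 over the 606 genes with at least 50 FPKM in all 4 samples. In this fit each standard error came from a trend of spread with level over all genes (20532 total degrees of freedom). It does not measure the spread of the gene's own samples. The standard errors are larger than 9 of the 10 differences, and differences of that size were not detectable by this fit on the values as deposited.

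Whether a triad gene passed depended on how samples were put on one scale. Of 16 other limma settings, 14 gave 0 of 10, and in those 14 at most 2.99% of all genes tested passed. After cyclic loess normalization, 5 of 10 passed, with Cacng1, Stac3, Jph1 and Trdn higher and Cacnb1 lower in Old (adjusted p from 0.0102 to 0.0404), but 24.6% of all genes tested passed there too (11.1% higher and 13.6% lower). With the like-scaled pairs as a block, a setting chosen after the values were seen, 6 of 10 passed (Cacng1, Stac3, Ryr1, Jph1 and Jph2 higher and Cacnb1 lower), while 60.3% of all genes tested did (27.4% higher and 32.9% lower). Median scaling, median ratio scaling, an equal median of log2 values and quantile normalization each gave 0 of 10, with 0.244%, 1.32%, 1.99% and 2.99% of all genes tested past the threshold. The direction of Cacna1s, Casq1 and Srl is uncertain in any case, since their differences were small, and Casq1 changed sign after quantile and cyclic loess normalization (log2 fold changes of 0.22 and 0.10).

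Seen through the like-scaled pairs, the 10 genes fell into a few patterns. In both pairs, 7 of 10 were higher in Old (42.3% of all genes tested were) and 2 of 10 were lower (45.2% of all genes tested were), which makes 9 of 10 with one direction, beside 87.5% of all genes tested. The 87.5% counts genes at 0 in both samples of a pair as without a direction. Among the 9293 tested genes with a finite log2 ratio in both pairs, 5.93% had opposite directions. Among the 606 genes with at least 50 FPKM in all 4 samples 3.63% did, beside 1 of the 10 triad genes. The 9 of 10 are thus no more than genes of this level gave. At least 1.2-fold in both pairs, 5 genes were higher (Cacng1, Stac3, Ryr1, Jph1 and Trdn, beside 21.4% of all genes tested) and 1 was lower (Cacnb1, beside 25.1%), so 6 of 10 passed this limit beside 46.5% of all genes tested. At least 1.5-fold in both pairs, only Cacng1 and Trdn among the 10 remained, both higher (6.7% of all genes tested), and none was lower (9.28% of all genes tested), which makes 2 of 10 beside 16.0%. Both fold limits were chosen with these ratios in view. Both old samples lay above both young samples for Trdn alone of the 10 (1.61% of all genes tested), and none of the 10 had both old samples below both young ones (1.93% of all genes tested, or 3.54% in either direction).

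**Figure D2:**
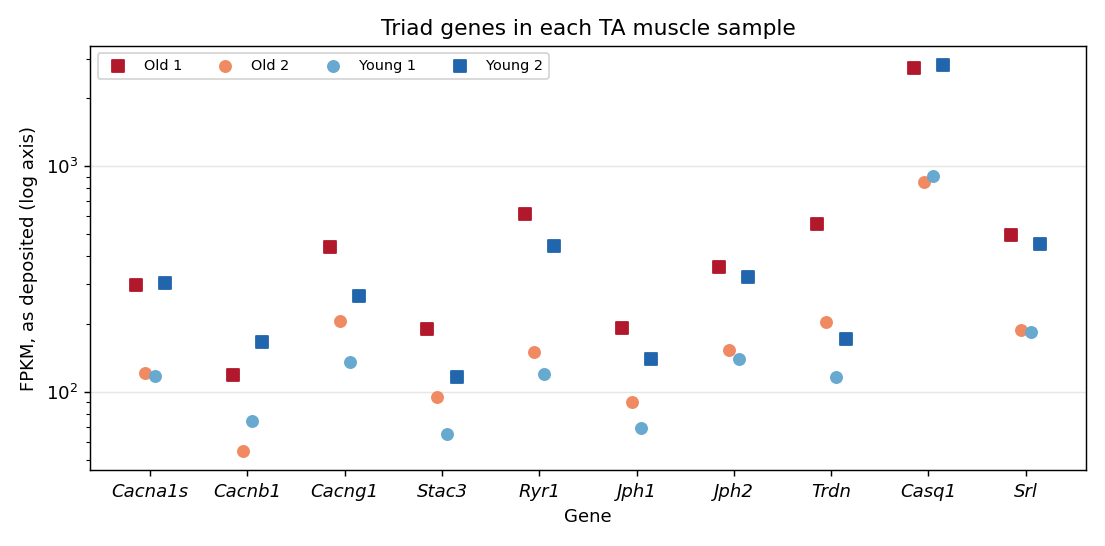
FPKM as deposited (log axis) of the 10 triad genes in each sample, with red and orange for Old and blue for Young, squares for Old 1 and Young 2 and circles for Old 2 and Young 1. In each gene the squares lie above the circles of the same age, and for Trdn both old points lie above both young points.

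**Figure D3:**
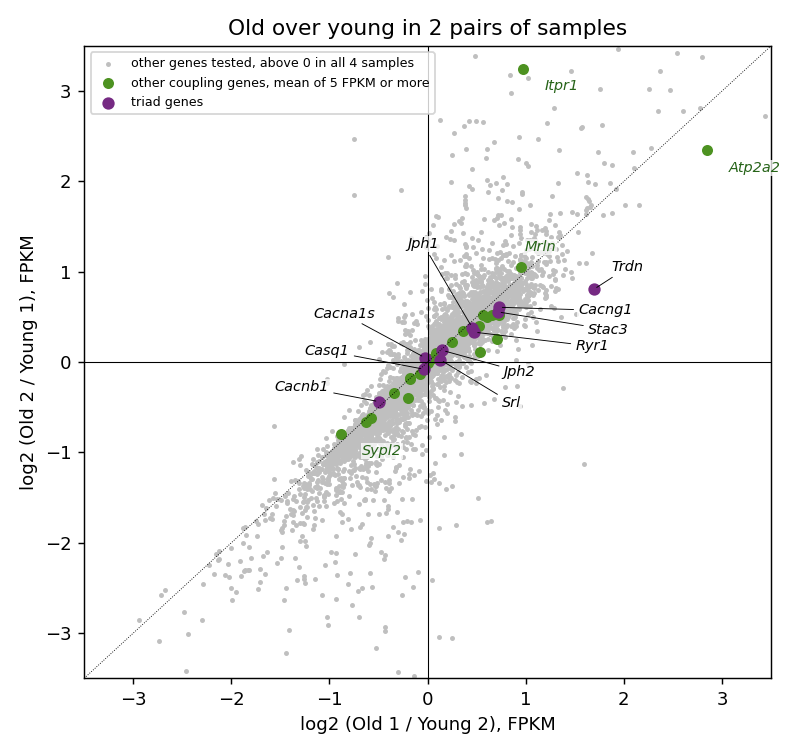
log2 ratio of Old 2 to Young 1 (vertical) against log2 ratio of Old 1 to Young 2 (horizontal) in FPKM, for the triad genes (purple), other coupling genes with a mean of at least 5 FPKM (green) and all other tested genes above 0 in all 4 samples (grey, a few outside the drawn range). The dotted line marks equal ratios. Trdn lies at 1.69 and 0.80, Cacng1 and Stac3 lie close together near the dotted line, Cacna1s, Casq1 and Srl lie near 0, and Cacnb1 lies at -0.49 and -0.44.

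The dihydropyridine receptor is the voltage sensor of the triad, and its subunits did not share a direction. Cacna1s encodes the pore-forming alpha-1S subunit, which carries the voltage-sensing segments and contacts the ryanodine receptor. Its locus (mm10, chr1:136052558-136119822, plus strand) holds 44 exons in the coding transcript of GENCODE with the longest reading frame. Cacna1s stood at 299 FPKM in Old 1 and 121 in Old 2, against 117 in Young 1 and 305 in Young 2. Old 1 and Young 2 were high, Old 2 and Young 1 were low, and the ages overlapped. The ratio was 0.982 in the pair Old 1 to Young 2 and 1.03 in the pair Old 2 to Young 1, and the log2 fold change in limma was 0.01 (SE 1.03).

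The regulatory subunits lay on either side of it. Cacnb1 (chr11:98001517-98022627, minus strand) encodes the beta-1 subunit, which brings the alpha subunit to the membrane and is needed for its arrangement at the triad. Cacnb1 stood at 119 FPKM in Old 1 and 54.8 in Old 2, against 74.3 in Young 1 and 167 in Young 2. It was the one triad gene at least 1.2-fold lower in Old within both pairs (0.711 and 0.738), although the ages overlapped (log2 fold change -0.46, SE 0.975). Cacng1 (chr11:107701435-107716563, minus strand) encodes the gamma-1 subunit, a skeletal muscle subunit that limits the calcium current of the receptor. Cacng1 stood at 439 FPKM in Old 1 and 207 in Old 2, against 136 in Young 1 and 265 in Young 2. In both pairs the old sample was the higher (1.65- and 1.52-fold), while Old 2 lay below Young 2 (log2 fold change 0.66, SE 1.05).

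Stac3 (chr10:127501684-127508815, plus strand) encodes an adaptor protein that binds the alpha subunit and is required for coupling in skeletal muscle. Stac3 stood at 191 FPKM in Old 1 and 95.5 in Old 2, against 64.9 in Young 1 and 116 in Young 2. Its pattern was near that of Cacng1, with the old sample higher by 1.64- and 1.47-fold in the pairs and with Old 2 below Young 2 (log2 fold change 0.63, SE 0.984).

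Ryr1 (chr7:29003340-29125222, minus strand) encodes the calcium release channel of the sarcoplasmic reticulum and has 109 exons in its longest coding transcript. Ryr1 stood at 618 FPKM in Old 1 and 151 in Old 2, against 120 in Young 1 and 444 in Young 2. The old sample was higher in both pairs (1.39- and 1.26-fold; log2 fold change 0.40, SE 1.06). The ages overlapped widely, since the samples of one age differed more in Ryr1 than in any other of the 10 genes. The SE is pooled over genes and does not measure that spread.

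The 2 junctophilins, which bridge the tubule and the sarcoplasmic reticulum, differed in size of the age ratio. Jph1 (chr1:16994932-17097889, minus strand), the junctophilin of skeletal muscle, stood at 192 FPKM in Old 1 and 90.2 in Old 2, against 69.2 in Young 1 and 139.8 in Young 2. It was higher in Old by 1.37- and 1.30-fold in the pairs (log2 fold change 0.41, SE 0.987). Jph2 (chr2:163336242-163397993, minus strand), which is also the main junctophilin of the heart, stood at 357 FPKM in Old 1 and 154 in Old 2, against 140.4 in Young 1 and 322 in Young 2. The pairs gave 1.11- and 1.09-fold (log2 fold change 0.14, SE 1.04). For both genes Old 1 and Young 2 were the high samples and the ages overlapped.

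Trdn, in the lumen and membrane of the terminal cisterna, had the highest age ratio of the 10. Trdn (chr10:33083189-33481297, plus strand) encodes triadin, which anchors calsequestrin at the release channel. Trdn stood at 555 FPKM in Old 1 and 204 in Old 2, against 117 in Young 1 and 172 in Young 2. Neither old value came down to the range of the young ones, the one such case among the 10. The 2 ratios were unequal, 3.23-fold for Old 1 to Young 2 and 1.75-fold for Old 2 to Young 1 (log2 1.69 and 0.80), and they differed more between pairs than those of any other triad gene. In limma the log2 fold change was 1.24 (SE 1.04), and the exact two-sided permutation p was 0.333, the smallest that 2 samples against 2 allow. The annotation places 4 genes on the opposite strand and 4 on the same strand within the Trdn locus.

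Its partner in calcium storage had nearly equal values in the old and young sample of each like-scaled pair. The samples of one age differed by 3.20-fold in Old and 3.11-fold in Young. Casq1 (chr1:172209894-172219895, minus strand) encodes calsequestrin 1, the main calcium-binding protein in the sarcoplasmic reticulum of fast fibres. Casq1 stood at 2737 FPKM in Old 1 and 855 in Old 2, against 903 in Young 1 and 2808 in Young 2, with pair ratios of 0.975 and 0.947 (log2 fold change -0.06, SE 1.32). Srl (chr16:4475491-4523466, minus strand) encodes sarcalumenin, a calcium-binding glycoprotein of the longitudinal reticulum that acts with the calcium pump. Srl stood at 496 FPKM in Old 1 and 188 in Old 2, against 185 in Young 1 and 454 in Young 2, with pair ratios of 1.09 and 1.02 (log2 fold change 0.08, SE 1.07). In both genes the ages overlapped. For these and the other triad genes apart from Trdn, the exact permutation p ran from 0.667 to 1.0.

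Of the 10 genes, 7 overlap an annotated gene on the opposite strand (GENCODE vM21), and 3 overlap no other gene. The study's methods name a stranded kit and the labels a kit without that word, and whether the counting used strand is not given in the sources used here. Reads of overlapping genes could therefore be shared in those 7.

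The sequences before the start sites are shown for the voltage sensor, the release channel and the calcium store, the proteins between which the signal passes. RefSeq promoter windows (GRCm38.p6, equal to mm10 in coordinates) were matched for 5 of the 10 genes. The hexamer CAGCTG, an E-box of the kind that myogenic factors bind and its own reverse complement, was found in the 250 bases before the start in 3 of these 5 genes (Cacna1s, Casq1 and Jph2), beside 13.0% of 32851 windows of the same length. The hexamer CATTCC, the core of the element bound by TEAD factors (GGAATG on the other strand), was found in 1 of 5 (Cacna1s), beside 12.6% of all windows. The motifs and the genes shown were chosen after the values were seen. A match is a run of letters and not a measured binding site, and both motifs are printed in capitals below, 5′ to 3′ on the strand of the gene, with bases inside the GENCODE gene left out. The deposited loci of Cacna1s and Ryr1 start further out than the GENCODE genes, so the bases shown for Cacna1s and the last of those shown for Ryr1 lie within the deposited locus. Cacna1s covers chr1:136052561-136052749 (plus strand), Casq1 covers chr1:172219896-172220145 (minus strand) and Ryr1 covers chr7:29125180-29125401 (minus strand).
Cacna1s: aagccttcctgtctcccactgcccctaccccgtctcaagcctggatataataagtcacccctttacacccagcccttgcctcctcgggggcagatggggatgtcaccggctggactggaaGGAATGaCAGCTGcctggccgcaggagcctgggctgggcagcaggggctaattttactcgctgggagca
Casq1: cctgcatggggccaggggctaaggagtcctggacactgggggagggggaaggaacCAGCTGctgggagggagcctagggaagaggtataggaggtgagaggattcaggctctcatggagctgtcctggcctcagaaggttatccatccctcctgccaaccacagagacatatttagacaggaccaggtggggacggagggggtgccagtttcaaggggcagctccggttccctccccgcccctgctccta
Ryr1: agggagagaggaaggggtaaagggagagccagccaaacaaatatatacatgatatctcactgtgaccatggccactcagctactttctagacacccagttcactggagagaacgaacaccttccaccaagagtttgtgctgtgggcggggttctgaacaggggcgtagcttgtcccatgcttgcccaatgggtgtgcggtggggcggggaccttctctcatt
Ryr1 holds neither hexamer in its window, and Cacna1s holds both next to each other.

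Ratios of one triad gene to another in the same sample do not change when all values of a sample are multiplied by one factor. They were compared between ages without any scaling. The samples of one age did not differ by a single factor, since their ratio over the triad genes ran from 1.999 to 4.10 in Old and from 1.47 to 3.71 in Young. The ratios of triad genes therefore still hold part of the difference between samples. Of 8 ratios, 3 had both old values above the young range, 2 had both below it and 3 overlapped. Such a separation was common: among the 183315 ratios of any 2 genes with at least 50 FPKM in all 4 samples, 74.7% had both old values outside the young range, and among the 45 ratios of any 2 triad genes 62.2% did. The 5 of 8 are thus no more than genes of this level gave in general, and the ratios are given as a description. The exact two-sided permutation p was 0.333 for each of the 5 that did not overlap, which is the smallest that 2 against 2 samples allow, so none can pass 0.05. Adjusting over the 8 ratios could only raise it.

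Within the voltage sensor, all 3 ratios to the alpha subunit separated the ages. Cacnb1 to Cacna1s was 0.396 in Old 1 and 0.452 in Old 2, against 0.634 in Young 1 and 0.547 in Young 2 (Old minus Young -0.48 on the log2 scale, pooled SD 0.14). Cacng1 to Cacna1s was 1.47 and 1.71 in Old 1 and Old 2, against 1.16 and 0.871 in Young 1 and Young 2 (0.65 on the log2 scale, pooled SD 0.23). Stac3 to Cacna1s was 0.638 and 0.787 in Old, against 0.554 and 0.382 in Young (0.62 on the log2 scale, pooled SD 0.31). Relative to the pore-forming subunit, the values of the beta subunit were lower, and those of the gamma subunit and the adaptor higher, in both old samples. For Cacng1 and Stac3 the 2 young samples lay further from each other than the nearest old and young sample did.

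Between the junctophilins, Jph1 to Jph2 was 0.537 in Old 1 and 0.587 in Old 2, against 0.493 in Young 1 and 0.434 in Young 2 (0.28 on the log2 scale, pooled SD 0.11). At both ages the samples of one age differed from each other by more than the nearest old and young sample did. In the store, Casq1 to Trdn was 4.93 and 4.18 in Old, against 7.72 and 16.4 in Young (-1.31 on the log2 scale, pooled SD 0.55), and the young samples differed from each other by more than the nearest old and young sample did. The ratios that overlapped were Cacna1s to Ryr1 (0.484 and 0.806 in Old, 0.98 and 0.685 in Young), Trdn to Ryr1 (0.898 and 1.36 in Old, 0.977 and 0.386 in Young) and Srl to Casq1 (0.181 and 0.22 in Old, 0.205 and 0.162 in Young). In these 3 ratios the samples of at least one age differed from each other by more than the ages did, while within the like-scaled pairs each kept one sign, with log2 differences of -0.50 and -0.28 for Cacna1s to Ryr1, 1.22 and 0.47 for Trdn to Ryr1 and 0.16 and 0.11 for Srl to Casq1.

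**Figure D4:**
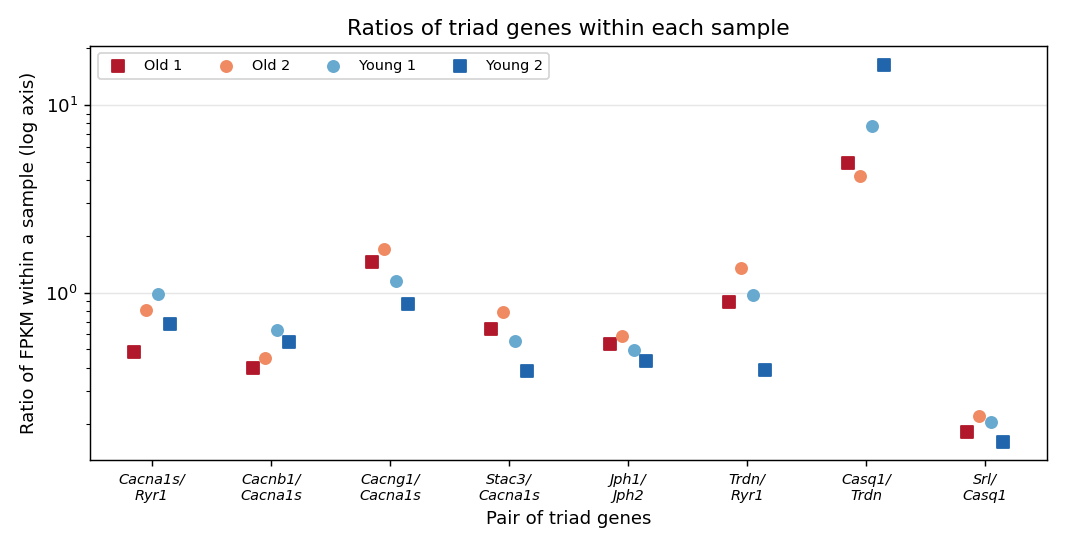
Ratio of the FPKM of 2 triad genes within each sample (log axis), with red and orange for Old, blue for Young, squares for Old 1 and Young 2 and circles for Old 2 and Young 1. Old points lie below both young points for Cacnb1/Cacna1s and Casq1/Trdn, above them for Cacng1/Cacna1s, Stac3/Cacna1s and Jph1/Jph2, and among them for the other 3 ratios.

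Beyond the triad genes, 50 other genes of coupling and calcium handling were listed, of which 42 had a value and 32 were tested. The 8 without a value were Stac, Jph3, Dnm2, Mtm1, Tmem38a, Ank1, Sln and Atp2a1. Atp2a1 is a calcium pump gene like Atp2a2, and its level at either age is unknown here. None of the 32 passed the test in either direction with limma on the values as deposited, and 1 (Atp2a2) had an unadjusted p under 0.05. Their median log2 fold change was 0.07. Atp2a2, the calcium pump of slow and cardiac muscle, had the highest log2 fold change (2.49, SE 0.933, adjusted p 1.00 in limma), at 115 FPKM in Old 1 and 40.6 in Old 2, against 7.98 in Young 1 and 16.0 in Young 2. Both old samples lay above both young samples in Atp2a2 and in no other of the 32, beside 1.61% of all genes tested. In 0 of the 32 both old samples lay below both young ones, beside 1.93% (3.54% in either direction).

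Itpr1, an inositol trisphosphate receptor, came next (1.65, SE 0.952), at 30.6 FPKM in Old 1 and 9.11 in Old 2, against 0.96 in Young 1 and 15.6 in Young 2, and its ratio was 1.96-fold in one pair and 9.49-fold in the other. Mrln, the micropeptide myoregulin that inhibits the calcium pump, followed (0.99, SE 0.971), with ratios of 1.93 and 2.08. At the other end stood Sypl2, a synaptophysin-like protein of the triad (-0.84, SE 1.03, ratios of 0.541 and 0.577), Cav3, the caveolin of muscle (-0.63, SE 0.937, ratios of 0.645 and 0.632), and Orai1, the store-operated calcium channel of the surface membrane (-0.57, SE 0.933, ratios of 0.669 and 0.651). Jsrp1, a junctional protein that binds both calsequestrin and the voltage sensor, had ratios of 1.65 and 1.43, near those of Cacng1 and Stac3. Listed with the voltage sensor, Cacna2d1 had ratios of 1.19 and 1.17, and Cacng6 of 1.00 and 0.991. Under 4 of the scaling settings named above (cyclic loess, quantile, an equal median of log2 values and the like-scaled pairs as a block), Atp2a2 and Mrln passed as higher and Sypl2 as lower in Old, and under median ratio scaling Atp2a2 passed.

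Slow-fibre markers differed between the ages, while fast-fibre markers had no shared direction. All 5 slow-fibre markers with a value (Myh7, Tnnt1, Myl2, Tnnc1 and Tnni1) passed limma's test as higher in Old, and their summed FPKM was 1167 in Old 1 and 421 in Old 2 against 27.9 in Young 1 and 73.0 in Young 2 (16.0- and 15.1-fold in the pairs). The 5 calls (adjusted p from 0.00148 to 0.0479) were all lost with no filter, under the replicate block and when any sample was left out, and 2 of 5 remained under the stricter filter or with no trend, whereas each scaling, each normalization and the like-scaled pairs as a block gave 5 of 5. Slow fibres are known to use Atp2a2 as their pump. Of 8 fast-fibre markers, Myh4 was listed at 0 in all 4 samples, Myh1 at 0 in both young samples and Tnnt3 at 0 in both old samples, while Tnni2, Tnnc2, Mylpf and Myl1 stood at 3168 FPKM or more in every sample, and the list summed to 1.23 and 0.72 of Young in the pairs. Of 8 general fibre markers, Ckm was listed at 0 in all samples, Ttn in both old samples and Neb in Old 2 and Young 1, and the list summed to 0.801 and 0.848 of Young in the pairs. Muscle was thus recognisable by its contractile markers with values, and a 0 for genes that every fibre uses can be a failed estimate. Both list sums hold the genes listed at 0 in some samples, so they partly reflect those zeros. Tnnt3 stood at 4465 FPKM in Young 1 and 7509 in Young 2, and Myh1 at 1318 in Old 1 and 156 in Old 2. Whether the zeros of Tnnt3 and Myh1 are failed estimates was not tested. Actc1, the cardiac actin, was lower in Old (35.8 and 18.3 FPKM against 372 and 2397), and the other 4 markers of the heart stood at 2.47 FPKM or less in every sample. The part of fibre type in the triad values was not tested.

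Some lists of markers of other cells held genes of opposite direction. Of 5 fibroblast markers, the 3 collagens stood at 0.23 to 0.367 of Young in the pairs, while Dcn (1.24 and 1.21) and Pdgfra (1.16 and 1.18) were higher in Old. Of 4 adipocyte markers, Fabp4, which makes up most of the sum, stood at 0.906 and 0.899 of Young, while Adipoq (1.97 and 2.17), Plin1 (1.36 and 1.48) and Lep (3.17 and 6.45) were higher in Old. Plin1 and Lep stood at no more than 2.18 FPKM in any sample. Lep, at 0.06 FPKM in Young 1, did not pass the filter, so its ratios are those of values near 0. Pecam1 (0.819 and 0.806) was lower, while Kdr (1.03 and 1.00) and Tek (1.01 and 0.988) were near Young. Acta2 (0.685 and 0.694) was lower, but Myh11 (1.24 and 0.999) was not lower in both pairs. Cd68 (0.418 and 0.189), Csf1r (0.735 and 0.745) and Adgre1 (0.72 and 0.872) were lower, Ptprc (1.47 and 1.25) was higher and Cd14 was mixed (0.959 and 1.18). Summed FPKM in the pairs was 0.676 and 0.686 of Young for the fibroblast list, 0.924 and 0.911 for the adipocyte list, 0.634 and 0.608 for 3 Schwann cell markers, 0.892 and 0.874 for 3 endothelial markers, 0.743 and 0.733 for 2 smooth muscle markers, 0.677 and 0.602 for 5 macrophage markers and 1.17 and 1.24 for 2 satellite cell markers, the last 2 lists at no more than 6.82 FPKM in any sample. Their part in the triad values was not tested.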

How the data were processed

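TA muscle mRNA-seq of 2 Old and 2 Young samples was used, grouped by the age in the sample labels. The authors trimmed reads, removed PCR duplicates, aligned them to mm10 with TopHat2 2.0.10, and ran Cufflinks against RefSeq genes in each sample. The values the authors deposited are FPKM, 1 for each locus. The submitters' processing notes name Cuffdiff 2.1.1, which needs aligned reads and was not run here. The depth of each sample is unknown, since FPKM values hold no counts, so no interval from counts is given.

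Of the loci, 542 had no value in all 4 samples, because each list ended within chromosome 7 or 8 in text order, and were left out. The remaining 20605 loci were summed by symbol to 20340 gene labels. log2(FPKM + 1) was compared between ages by limma (version 3.58.1, R 4.3.3; lmFit, trended eBayes, two-sided test, p-values adjusted after Benjamini and Hochberg, threshold 0.05) over the 10266 genes that reached 1 FPKM in 2 or more samples. Fold changes are on that scale and understate low genes. Exact permutation tests used scipy 1.17.1. The fit was also run on simulated data with known changes, and the outcome of that run is not used here.

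The 10 genes, the lists and the tests were chosen with earlier results of these data known. Named with values were the 10 triad genes and, of 50 coupling genes, any with a mean of at least 5 FPKM, always with the 3 highest and 3 lowest fold changes. Alternatives were another pseudocount, other filters, scalings and normalizations, the highest row per symbol, no trend, a replicate block and leaving out each sample. Median ratio scaling, an equal median of log2 values, the like-scaled pairs as a block and both fold limits were added after the values were seen, and the lower fold limit was first set slightly higher, where the same 6 triad genes passed. Median scaling was first computed as an equal median of log2 values and then, with that output in view, as an equal median of FPKM, and both are given. Gene models are from GENCODE vM21 and promoter windows from RefSeq (GRCm38.p6).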

Additional observations from a re-analysis of the deposited data

How the results depend on the processing

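The count of 0 of 10 triad genes past the threshold moved to 5 after cyclic loess normalization and to 6 with the like-scaled pairs as a block, and the fold limits of 1.2 and 1.5, which are no test, gave 6 and 2. Of the 32 coupling genes tested, 0 passed as deposited, with the share of all genes tested in brackets here and below (0.302%). After quantile normalization 3 passed (2.99%), and after cyclic loess 13 (24.6%). With the like-scaled pairs as a block 23 passed (60.3%), among them Speg, whose row is shared with Des. Under median ratio scaling 1 passed (1.32%), and with an equal median of log2 values 3 (1.99%). By the fold limits 16 (46.5%) and 6 (16.0%) passed. Over all genes the count of 31 moved to 0 with no filter (52 at an unadjusted p under 0.05 in limma), 6 under the filter of 1 FPKM or more in every sample, 307 after quantile normalization, 2530 after cyclic loess, 136 under median ratio scaling, 204 with an equal median of log2 values, and 4777 and 1641 by the fold limits. Samples of the same number deviated in opposite directions (correlation -0.885), so the labels' numbers do not pair the samples: with the replicate block 5 genes and 0 triad genes passed, and with the crossed pairing, chosen after seeing the data, 6186 and 6 did.

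Leaving out each sample in turn left 0 triad and 0 coupling genes past the threshold and 5 to 12 of all genes, with 5 without Old 2. The median log2 fold change of the triad genes ran from -0.54 to 0.87 when a sample was left out, and from 0.27 to 0.33 under settings with all samples. Without Old 1 and without Young 1, the log2 fold changes reversed for Cacna1s (-0.64 and -0.67), Ryr1 (-0.61 and -0.54), Jph1 (-0.13 and -0.09), Jph2 (-0.47 and -0.46) and Srl (-0.62 and -0.57). Without Old 2 and without Young 2 they reversed for Cacnb1 (0.09 and 0.12) and Casq1 (0.78 and 0.76). The highest or lowest values over these fits on the other side were 0.70 for Cacna1s, -1.04 for Cacnb1, 1.42 for Ryr1, 0.95 for Jph1, 0.74 for Jph2, -0.90 for Casq1 and 0.77 for Srl. Such a fit sets a high sample against a low one, and the lone sample is assumed to vary like the other age. Casq1 also reversed after quantile normalization (0.22) and cyclic loess (0.10). Cacng1, Stac3 and Trdn kept their direction under every limma setting run, but their size moved with the sample left out, from 0.123 to 1.2025, 0.13 to 1.12 and 0.52 to 1.96.

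With a sample left out, the within-sample log2 ratios of Old minus Young ran from -0.58 to -0.37 for Cacnb1/Cacna1s, 0.45 to 0.86 for Cacng1/Cacna1s, 0.36 to 0.89 for Stac3/Cacna1s, 0.19 to 0.37 for Jph1/Jph2, -1.85 to -0.77 for Casq1/Trdn, -0.76 to -0.02 for Cacna1s/Ryr1, 0.18 to 1.52 for Trdn/Ryr1 and -0.04 to 0.31 for Srl/Casq1. With 2 samples per age, values cut short by chromosome and unknown depth, a difference that did not pass is not shown to be absent. The cause of these dependences was not tested.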
